A study of Macaca fascicularis with 5 samples.

Results

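Heat shock proteins and J-domain cochaperones were examined in the dorsal lateral geniculate nucleus (dLGN) of young cynomolgus monkeys. The genes were taken by name from the deposited count table: symbols that start with HSPA, HSPB, HSP90, DNAJA, DNAJB or DNAJC followed by a number, and HSPH1, HSPD1 and HSPE1 where present. Of 20576 symbols, 68 matched, and the 59 with at least 50 estimated counts over all 5 libraries are described here. All 59 entered the test, which ran over 14317 genes.

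HSP70 proteins bind unfolded stretches of other proteins in a cycle driven by ATP. J-domain proteins bring substrates to HSP70 and trigger its ATPase, and HSP110 proteins release the nucleotide and so reset the cycle. HSP90 acts later on kinases, hormone receptors and other clients, small heat shock proteins hold unfolded proteins without ATP, and some J-domain proteins serve a single site such as the synaptic vesicle, the clathrin coat, the endoplasmic reticulum or the mitochondrial import pore. Heat shock factor 1 induces part of this set under stress, while neurons express other members at high levels at all times.

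Messenger RNA from the dLGN, the thalamic relay of the visual pathway, was sequenced in 2 monkeys whose left eye had been sutured from 1 month of age (Deprivated-316 and Deprivated-326) and in 3 untreated monkeys (Control-307, then Control-317 and lastly Control-331, the order in which control values are given throughout), with 1 library per animal. The labels give an age of 3 months for all 5 animals, and the study's methods place the end of the suture later than the labels do. Both deprived libraries and Control-317 carry a left side in their titles and Control-307 and Control-331 a right side, although the descriptions of the control libraries state that the left and right dLGN were mixed. For the deprived animals only the left dLGN was sequenced, because the right gave RNA of low quality.

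Total estimated counts were 7607859 and 7391844 in the deprived libraries and lay between 9424975 and 12966019 in the control libraries, and each library held 13613 to 14022 genes at 10 counts or more. Control-317 differed from both other control libraries in its tissue markers. The summed level of 10 thalamic relay neuron markers was 432 and 1033 CPM (counts scaled to the normalised library total) in the deprived libraries, against 224, 1739 and 381 CPM in the control libraries. The sum of 10 markers of striatal spiny neurons, which lie outside the dLGN, was 1754 and 1437 CPM against 6647, 304 and 5996 CPM. All markers of both lists were detected in every library. The part of tissue composition in the fold changes below was not tested. In bulk tissue, fewer cells of a type and less RNA per cell cannot be told apart.

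The set was led by 3 genes. Summed over transcripts and averaged over the 5 libraries, HSPA8, the constitutive cytosolic HSP70 that also strips clathrin from vesicles, had 513 FPKM (fragments scaled to transcript length and library total) and ranked 15 among all symbols. HSP90AA1 and HSP90AB1, the cytosolic HSP90 isoforms, averaged 408 and 330 FPKM and ranked 23 and 35. Together these genes held 47.5% and 46.5% of the members' estimated counts in the deprived libraries and 48.9%, 54.4% and 51.3% in the control libraries.

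Below them came HSP90B1, the HSP90 of the endoplasmic reticulum (103 FPKM), HSPA5, the HSP70 of the same compartment known as BiP (84.6 FPKM), and DNAJC6, the neuronal auxilin that recruits HSPA8 to clathrin coats (75.5 FPKM). DNAJA1, a general cytosolic J-domain protein, averaged 63.8 FPKM and HSPD1, the mitochondrial chaperonin HSP60, 57.0 FPKM. Of the 59 members, 4 were above 100 FPKM, 36 above 10 FPKM and 57 above 1 FPKM on average. The whole set held 0.993% and 1.06% of all counts in the deprived libraries and 1.03%, 1.29% and 1.13% in the control libraries, so Control-317 was the highest and the deprived libraries overlapped the others.

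**Figure D1:**
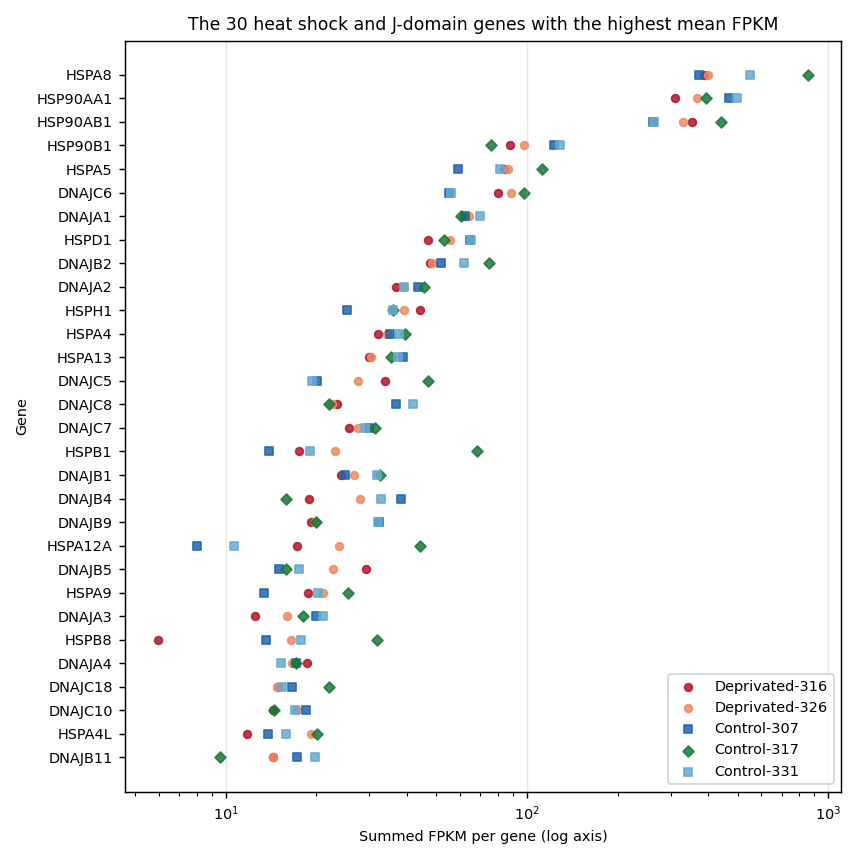
Summed FPKM per gene on a log axis for the 30 members with the highest mean FPKM, 1 point per library, deprived libraries first in the legend. HSPA8, HSP90AA1 and HSP90AB1 sit at 262 to 858 FPKM, and the points of Control-317 stand apart for HSPA8, HSPB1 and HSPA12A.

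The study compared monocular deprivation with untreated vision, and no member passed the test of that comparison. In edgeR's quasi-likelihood test 0 of 59 members had an adjusted p under 0.05, as did 0.0% of all genes tested in either direction, and the smallest adjusted p of a member was 0.389. At an unadjusted p under 0.05 there was 1 member higher in the deprived libraries, against 5.69% of all genes, and 1 lower, against 4.07%. DESeq2 also called 0 members, against 1.69% of all genes as higher and 0.443% as lower, with a smallest adjusted p of 0.102. The exact test of edgeR called 0 as well, against 1.38% and 0.203%, with a smallest adjusted p of 0.320. The design limits what single values can show, since an exact rank test of 2 against 3 libraries cannot give a two-sided p below 0.2. On simulated counts, the quasi-likelihood test recovered only 1 of 50 genes with a log2 fold change of 1. The absence of calls therefore does not show an absence of changes of that size.

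Of the 59 log2 fold changes (deprived minus control), 23 were above 0, or 39.0% against 44.9% of all genes, and 36 were below 0, against 55.1%. Their median was -0.11, with quartiles of -0.36 and 0.14, and that of all genes was -0.06, with quartiles of -0.38 and 0.28. Only HSPA12B and DNAJC28 lay beyond 1 in size, 2 of 59 members against 11.7% of all genes. The libraries of the groups did not overlap for 6 members that were higher after deprivation, against 15.2% of all genes, and for 8 that were lower, against 15.5%. Both directions together made 23.7% of the members and 30.8% of all genes.

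**Figure D2:**
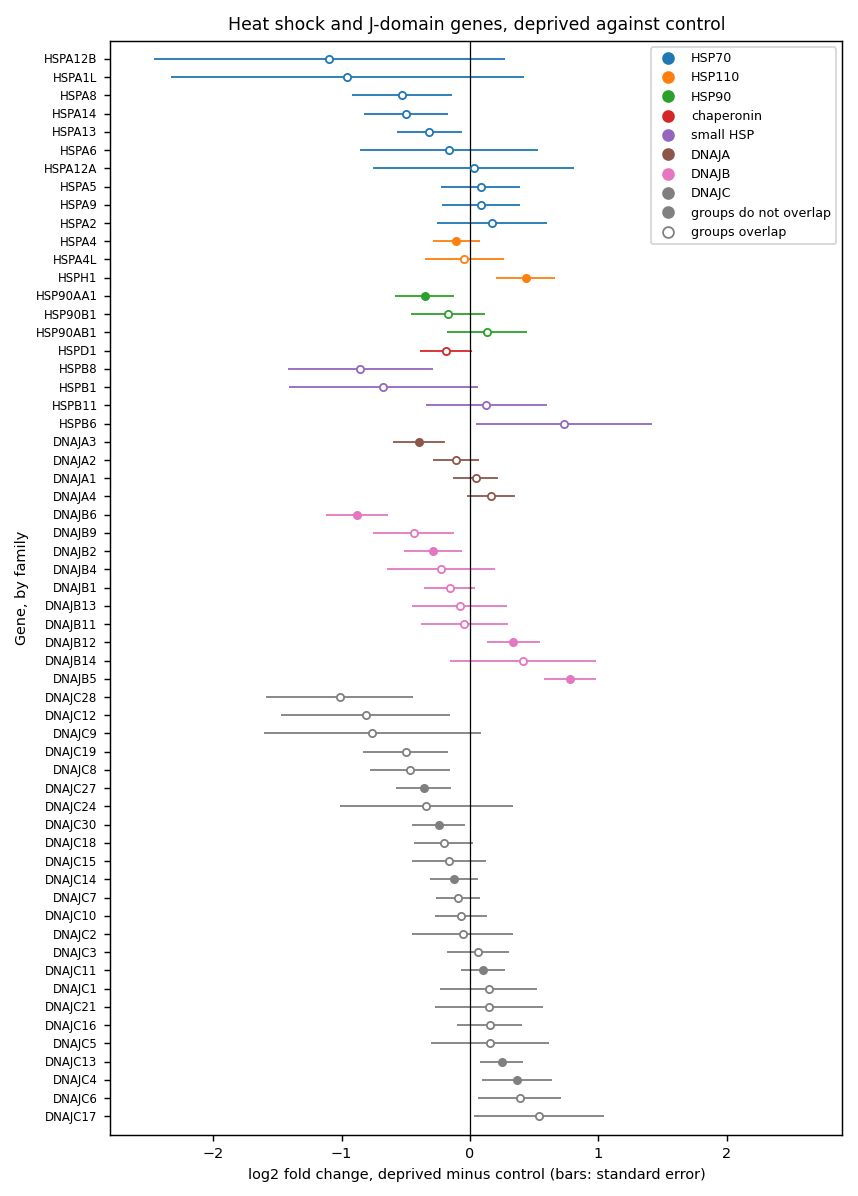
Log2 fold change of the 59 members, deprived minus control, by family, with bars of 1 standard error. Filled points mark the 14 members whose groups did not overlap. The values run from -1.10 to 0.78, and 0 passed the test.

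These counts depended on Control-317. Without it, 5 of 58 members passed the test (edgeR quasi-likelihood, adjusted over all genes), 2 higher, against 6.46% of all genes, and 3 lower, against 3.68%. The higher ones were HSPA12A and DNAJC6, and the lower ones DNAJC28, DNAJC8 and DNAJB9. In that comparison both deprived libraries were left-titled and both control libraries right-titled. The summed striatal markers divided these libraries the same way, at 1754 and 1437 CPM against 6647 and 5996 CPM. Of 10 striatal markers, 9 passed the same test as lower. Deprivation, title side and tissue content therefore cannot be told apart there. The number of members with non-overlapping groups became 32 without Control-317, while 63.3% of all genes did not overlap then. Of these 13 were higher, against 30.5% of all genes, and 19 lower, against 32.8%. Leaving out another library raised the share over all genes as well. The number was 18 without Deprivated-316 (43.2% of all genes), 29 without Deprivated-326 (51.4%), 22 without Control-307 (40.2%) and 19 without Control-331 (36.5%). With Control-317 and Deprivated-316 exchanged, the division of the libraries that a supplementary table follows, it was 13, against 24.0% of all genes, and 24 of 59 signs turned, those of DNAJB5 and DNAJB6 among them.

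Among the HSP70 proteins themselves, which form the core of the system, no member separated the groups. Of 10 genes, 4 had a log2 fold change above 0 and 6 below, with a median of -0.24. HSPA8 had 1606 and 1629 CPM in the deprived libraries, against 1489, 3398 and 2119 CPM in the control libraries. Its deprived libraries agreed closely and lay inside the control range, which Control-317 stretched upward (log2 fold change -0.53, standard error 0.39, adjusted p = 0.699 in edgeR). Without Control-317 the log2 fold change was -0.16.

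HSPA5, the BiP of the endoplasmic reticulum, had 383 and 387 CPM in the deprived libraries, against 259, 486 and 345 CPM in the control libraries, and its mitochondrial counterpart HSPA9 had 120.3 and 133 CPM against 82.3, 155 and 121 CPM. Both were lowest in Control-307 and highest in Control-317, with the deprived libraries between (log2 fold change 0.08 for each, standard errors 0.31 and 0.30). HSPA2, a constitutive HSP70 best known from the testis, had 38.0 and 52.5 CPM in the deprived libraries against 25.9, 62.0 and 32.4 CPM. HSPA12A, a divergent HSP70 relative found in brain, had 169.6 and 229 CPM against 75.8, 413 and 97.3 CPM.

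HSPA12A and HSPA2 shared 1 order of the libraries with HSPA5: Control-307 lowest, then Control-331, Deprivated-316, Deprivated-326 and Control-317. The summed thalamic relay markers had the same order, which 3 of 59 members followed, against 4.14% of all genes. DNAJC28 followed the reverse, against 3.22% of all genes. That was also the order of the summed striatal markers, so HSPA12A, HSPA2 and HSPA5 ran opposite to that sum to the same extent. The summed astrocyte markers had that order too, but they spanned only 3033 to 3396 CPM. Among single astrocyte markers, SLC1A2, GJA1, FGFR3, SOX9, AGT and ALDH1L1 were highest in Control-317, as HSPA12A, HSPA2 and HSPA5 were. SLC1A3 was lowest there, at 776 CPM, and GFAP and AQP4 were neither highest nor lowest. HSPH1 and DNAJC4 followed the order of the summed cortical or hippocampal excitatory markers, against 2.62% of all genes. DNAJC27 followed its reverse, against 1.99% of all genes, which was also the order of the summed oligodendrocyte and endothelial markers. The place of Control-317 in the excitatory sum came mostly from CUX2, with 241 of its 277 CPM, and from NRGN (31.5 CPM). SLC17A7, NEUROD6, NEUROD2, TBR1, EMX1 and BHLHE22 were at 0 to 0.400 CPM in that library. For HSPA12A the control libraries alone spanned 75.8 to 413 CPM, and the log2 fold change was 0.03 (standard error 0.78, adjusted p = 0.994 in edgeR). It became 1.21 (standard error 0.21, adjusted p = 0.0334) without Control-317, and -0.36 without Control-307, so its size and sign turned on which library was left out. The part of any of these cell types in the member levels was not tested.

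The remaining HSP70 genes were less abundant. HSPA13, an HSP70 relative of the endoplasmic reticulum, had 126 and 159 CPM in the deprived libraries against 217, 149 and 165 CPM in the control libraries, and HSPA14, which works at the ribosome, 10.2 and 11.7 CPM against 18.3, 10.7 and 17.4 CPM. HSPA6, which is known as a strictly stress-induced HSP70, stayed between 1.05 and 2.56 CPM in every library. HSPA12B was at 0 in Deprivated-316 and at 5.60 CPM in Deprivated-326, against 4.64 to 8.28 CPM in the control libraries, and HSPA1L was at 0 in Deprivated-326 and at 5.10 CPM in Deprivated-316, against 3.68 to 7.37 CPM. Both zeros fell in single deprived libraries, and neither gene passed the test.

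The inducible HSP70 genes HSPA1A and HSPA1B were not among the symbols. An entry named only by a LOC number, LOC101925240, carries the description of heat shock 70 kDa protein 1/2 and lies outside the naming rule. It had 216 and 221 CPM in the deprived libraries, against 133, 209.5 and 286 CPM in the control libraries, a log2 fold change of 0.06 (standard error 0.35). The control libraries lay on both sides of the deprived ones. An entry described as the mitochondrial 10 kDa heat shock protein, LOC102114836, the partner of HSPD1 usually called HSPE1, had 27.0 and 38.6 CPM against 39.6, 25.05 and 48.5 CPM, again overlapping. Entries described as like HSPA8 and like HSP90-alpha are listed at 0 in every library. How reads shared between such copies were placed is not given in the sources used here, and the levels of these genes are uncertain to that extent.

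The nucleotide exchange factors of the HSP110 family include HSPH1, the only HSP gene with both deprived libraries above all control libraries. This heat-inducible HSP110 had 279.9 and 241 CPM in the deprived libraries, against 155, 214 and 209.6 CPM in the control libraries. The gap to the nearest control library was smaller than the spread among the control libraries, and the log2 fold change was 0.43 (standard error 0.23) and an edgeR adjusted p of 0.589. HSPA4, its constitutive relative, had 259 and 272 CPM against 272, 304 and 282 CPM, so the groups were separated by less than the rounding of these values, and HSPA4L had 81.9 and 131 CPM against 90.6, 139 and 101 CPM. Log2 fold changes were -0.11 for HSPA4 and -0.05 for HSPA4L. The ratio of HSPA8 to HSPH1 FPKM was 8.75 and 10.2 in the deprived libraries, against 14.7, 23.9 and 15.3 in the control libraries, lower in both deprived libraries than in any control library. This ratio contains HSPH1, whose groups were already apart, and no share over other gene pairs is given beside it.

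The cytosolic HSP90 isoforms had log2 fold changes of opposite sign. HSP90AA1, the isoform with the stronger heat induction, had 1541 and 1790 CPM in the deprived libraries, against 2233, 1856 and 2290 CPM in the control libraries, and both deprived libraries were the lowest of the 5 (log2 fold change -0.35, standard error 0.23, adjusted p = 0.657 in edgeR). HSP90AB1, the constitutive isoform, had 1663 and 1538 CPM against 1210, 1994 and 1178 CPM. Its deprived libraries lay between Control-317 and the other control libraries (log2 fold change 0.13, standard error 0.31).

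As a ratio within each library, HSP90AA1 to HSP90AB1 FPKM was 0.879 and 1.11 in the deprived libraries, against 1.79, 0.894 and 1.88 in the control libraries. Control-317 thus fell with the deprived libraries, and the ratio divided the libraries by the side in their titles rather than by group. Each gene already did so, with HSP90AB1 higher and HSP90AA1 lower in all left-titled libraries, so the ratio adds no separate result. The summed striatal markers divided the libraries in the same way. HSP90B1, also called GRP94, had 417 and 457 CPM in the deprived libraries against 562, 345 and 569 CPM, again with Control-317 nearest to the deprived libraries on its low side. The ratio of HSP90B1 to HSPA5 FPKM, both of the endoplasmic reticulum, was 1.04 and 1.13 against 2.08, 0.682 and 1.58. These genes too were each divided by title side, and no share over other gene pairs is given beside either ratio.

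**Figure D3:**
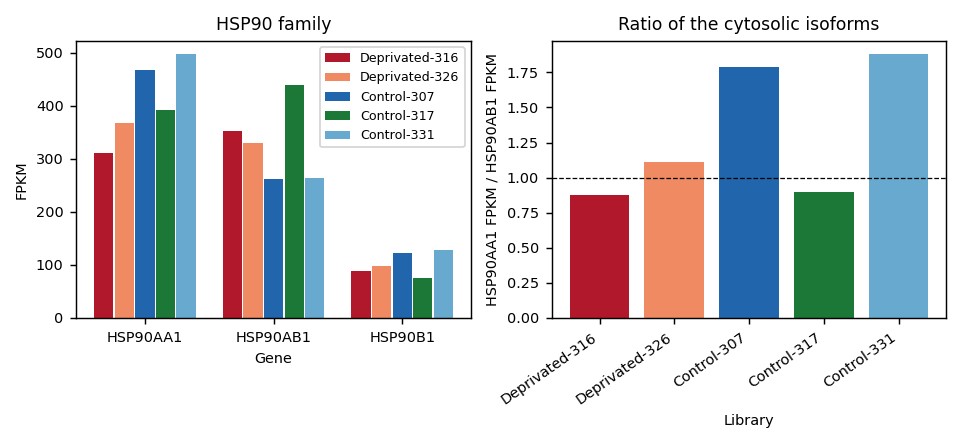
Left, FPKM of the HSP90 genes in each library as bars. Right, the ratio of HSP90AA1 to HSP90AB1 FPKM by library, from 0.879 in Deprivated-316 to 1.88 in Control-331, with Control-317 at 0.894 beside the deprived libraries.

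The division by title side held for other members too. In 10 of 59 members all left-titled libraries were above both right-titled ones, which was true of 21.7% of all genes, and in 14 all were below, against 23.2%. The higher members included HSPA5, HSPA2, HSPA12A, HSPH1, HSP90AB1, DNAJC5 and DNAJC6, and the lower ones HSP90AA1, HSP90B1, HSPD1, HSPA13 and DNAJB9. HSPD1 had 193 and 224 CPM in the deprived libraries, against 255, 209 and 248 CPM in the control libraries, a log2 fold change of -0.19 (standard error 0.20), which was -0.084 without Deprivated-316 and -0.29 without Deprivated-326. These shares were below or near those of all genes, and nothing in these counts was particular to the set.

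Small heat shock proteins varied widely between control animals. HSPB1, also known as HSP27, had 24.7 and 31.7 CPM in the deprived libraries, against 18.7, 91.1 and 24.9 CPM in the control libraries. HSPB8, which acts with BAG3 in the removal of misfolded proteins, had 21.5 and 58.1 CPM against 47.2, 109 and 59.5 CPM. Control-317 was far above every other library for both, and Deprivated-316 was the lowest for HSPB8.

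The fitted log2 fold change of HSPB1 was -0.67 (standard error 0.74) and became 0.37 without Control-317. HSPB6, known as HSP20 from muscle, had 22.5 and 17.3 CPM in the deprived libraries against 22.0, 4.0 and 9.95 CPM, so that Control-317 was the lowest for it. Markers of ependyma and choroid plexus summed to 27.6 and 60.9 CPM in the deprived libraries, against 91.3, 1121 and 145 CPM, and their high value stood in Control-317 as well. The part of these cells in the HSPB1 and HSPB8 levels was not tested. HSPB11, an intraflagellar transport protein that carries the HSPB name, stayed between 2.24 and 4.55 CPM.

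**Figure D4:**
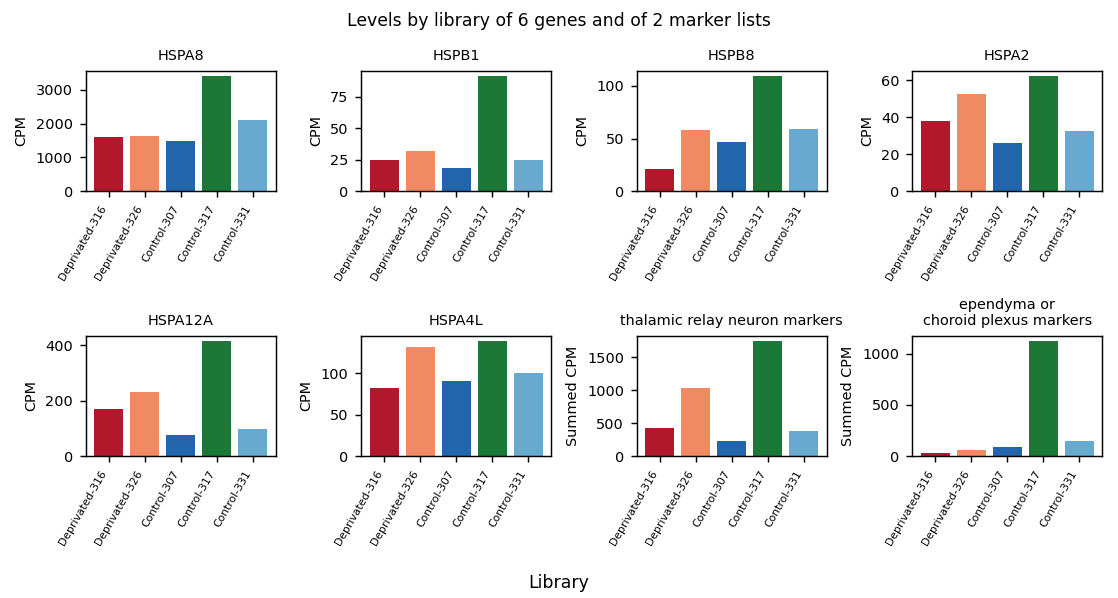
CPM by library of HSPA8, HSPB1, HSPB8, HSPA2, HSPA12A and HSPA4L and summed CPM of thalamic relay and of ependyma or choroid plexus markers, as bars from 0. Control-317 is the highest bar in each panel, at 91.1 CPM for HSPB1 and 413 CPM for HSPA12A.

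Cytosolic J-domain proteins held the smallest p-values of the set, in opposite directions. DNAJB5, a cytosolic class B member, had 129.7 and 97.5 CPM in the deprived libraries, against 62.6, 65.1 and 70.8 CPM in the control libraries. Here the control libraries were tight, Control-317 included, and both deprived libraries lay above them (log2 fold change 0.78, standard error 0.20, unadjusted p = 0.0106 and adjusted p = 0.389 in edgeR). DNAJB6, known for holding back the aggregation of polyglutamine proteins, had 20.7 and 25.3 CPM in the deprived libraries, against 39.7, 49.9 and 36.9 CPM. Both deprived libraries were below all control libraries (log2 fold change -0.88, standard error 0.24, unadjusted p = 0.0124 and adjusted p = 0.390 in edgeR). For both genes the size was alike without Control-317 (0.77 and -0.74), with edgeR adjusted p of 0.0609 and 0.0607. There, deprivation, title side and tissue content cannot be told apart. With 1 library left out, the values ran from 0.56 to 0.99 for DNAJB5 and from -1.02 to -0.74 for DNAJB6. Summed cortical or hippocampal excitatory markers also separated the groups, at 807 and 485 CPM against 142, 277 and 214 CPM. Their part in these values was not tested.

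The general cochaperones were flat. DNAJA1 had 156 CPM in both deprived libraries, against 149, 143 and 162 CPM in the control libraries, a log2 fold change of 0.05 (standard error 0.17). DNAJA2, its close relative, had 135 and 141 CPM against 153, 158 and 136 CPM. DNAJB1, the main heat-inducible J-domain protein, had 98.0 and 106 CPM against 97.2, 126 and 119 CPM. All 3 genes overlapped between the groups, and DNAJA1 and DNAJA2 stayed within a narrow band in all libraries.

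DNAJB2, a J-domain protein of neurons that binds ubiquitin, had 189 and 188 CPM in the deprived libraries, against 191, 275 and 224 CPM in the control libraries, so the deprived libraries were lower by a small margin to Control-307 (log2 fold change -0.29, standard error 0.23, and -0.14 without Control-317). DNAJA3, which works in mitochondria, had 57.0 and 71.7 CPM against 87.3, 78.4 and 88.5 CPM, with both deprived libraries the lowest (log2 fold change -0.40, standard error 0.20, adjusted p = 0.580 in edgeR). Without Deprivated-316 its value was -0.24. DNAJA4 had 101 and 88.7 CPM against 90.02, 87.2 and 76.2 CPM and DNAJB4 72.4 and 104 CPM against 138, 56.6 and 115 CPM, both overlapping.

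The J-domain proteins of vesicles, DNAJC5, DNAJC6 and DNAJC13, had log2 fold changes of 0.16, 0.39 and 0.25, and none passed the test. They were grouped by site after their values were seen. DNAJC5, the cysteine string protein of synaptic vesicles, had 319 and 255 CPM in the deprived libraries, against 183, 420.3 and 169 CPM in the control libraries. DNAJC6, the auxilin, had 654 and 729.5 CPM against 427, 739 and 419.5 CPM. For both, Control-317 was at or above the deprived libraries and the right-titled controls were well below, so the groups overlapped. The log2 fold change of DNAJC5 ran from -0.073 to 0.71 with 1 library left out. DNAJC6 passed the test only without Control-317 (log2 fold change 0.71, standard error 0.13, adjusted p = 0.0340 in edgeR).

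DNAJC13, an endosomal protein that is the exception in this trio, had 141 and 148 CPM in the deprived libraries, against 124, 117 and 123 CPM in the control libraries. Its groups did not overlap and Control-317 lay with the other control libraries, yet the difference was small (log2 fold change 0.25, standard error 0.17, adjusted p = 0.671 in edgeR).

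Of the 11 members of the endoplasmic reticulum 5 were above 0 and 6 below, and their median log2 fold change was -0.04. DNAJB12, anchored in the membrane of that compartment, had 60.6 and 57.9 CPM in the deprived libraries, against 50.2, 39.5 and 51.2 CPM in the control libraries, higher in both (log2 fold change 0.34, standard error 0.21). DNAJB9, a partner of BiP induced by unfolded proteins, had 55.9 and 59.6 CPM against 94.3, 51.2 and 89.5 CPM. Control-317 again lay with the deprived libraries, and the log2 fold change of -0.44 became -0.67 (standard error 0.13, adjusted p = 0.0421 in edgeR) without it. DNAJB14, DNAJB11, DNAJC1, DNAJC3 and DNAJC10 overlapped between the groups, at log2 fold changes of -0.07 to 0.41, and DNAJC14 was separated by a margin within rounding, at 60.2 and 62.6 CPM against 74.2, 63.7 and 62.7 CPM.

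Of the 8 mitochondrial members 2 were above 0 and 6 below, with a median log2 fold change of -0.22. DNAJC30 had 21.5 and 21.7 CPM in the deprived libraries, against 28.0, 25.2 and 23.4 CPM in the control libraries, and DNAJC11, of the complex that shapes the inner membrane, 80.3 and 78.8 CPM against 75.5, 77.2 and 70.02 CPM. Neither group pair overlapped, and both margins were small. DNAJC28 had 8.18 and 7.78 CPM against 22.7, 6.48 and 19.3 CPM, where the deprived libraries lay just above Control-317 and far below the others (log2 fold change -1.01, standard error 0.57). Without Control-317 it was the largest change of a member that passed the test, at -1.39 (standard error 0.22, adjusted p = 0.0272 in edgeR).

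Other class C members included DNAJC8, a splicing factor, with 63.0 and 59.4 CPM in the deprived libraries, against 94.4, 56.0 and 104 CPM in the control libraries. Control-317 was the lowest, and the log2 fold change was -0.47 with all libraries and -0.69 (adjusted p = 0.0402 in edgeR) without it. DNAJC27, a small GTPase with a J domain, had 53.6 and 55.3 CPM against 77.5, 57.8 and 74.6 CPM, and DNAJC4 10.2 and 9.69 CPM against 6.73, 8.24 and 8.13 CPM. Both kept the groups apart, DNAJC27 with the deprived libraries lower and DNAJC4 with them higher. The 11 class C members not named with values so far all overlapped between the groups, at log2 fold changes from -0.81 for DNAJC12, a cochaperone of aromatic amino acid hydroxylases, to 0.54 for DNAJC17. DNAJC12 had 1.88 and 3.14 CPM against 2.28, 7.36 and 3.54 CPM, with Control-317 the highest, and DNAJC9, a histone chaperone, 0.939 and 8.19 CPM against 8.69, 8.56 and 5.93 CPM, with Deprivated-316 far below the rest. DNAJB13, a protein of cilia and sperm tails, overlapped as well (-0.08). Across all 24 class C members 10 were above 0 and 14 below, with a median of -0.08, and the 10 class B members had 3 above, 7 below and a median of -0.12.

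Control-317 was the highest library for 21 of the 59 members and the lowest for 18, shares of 35.6% and 30.5% against 30.5% and 29.6% of all genes. Among the 59 its level exceeded the mean of the other control libraries most for HSPA12A (log2 difference 2.24) and HSPB1 (2.01), followed by DNAJC5 (1.25), and fell short most for DNAJC24 (-1.83), HSPB6 (-1.76) and DNAJB14 (-1.72). Summed HSP70 FPKM was 551 and 580 in the deprived libraries, against 508, 1098 and 718 in the control libraries, while summed HSP90 FPKM was 751 and 796 against 854, 909 and 892. The HSP90 sum was thus lower in both deprived libraries. It contains HSP90AA1, whose groups were already apart, while those of HSP90AB1 and HSP90B1 overlapped. No share over other sums is given beside it. The HSP70 sum varied more among the control libraries than between the groups. Within the control group the highest library was a median of 1.67 times the lowest over the members, and 1.67 times over all genes.

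The reads of 38 members were divided by the authors' software over several transcripts, 159 transcripts in all with the 21 single-transcript members. Of 117 tested, 0 passed the test, as in 0.0% of all transcripts. At an unadjusted p under 0.05 there were 4 higher, against 3.42% of all transcripts, and 1 lower, against 2.99%. The groups did not overlap for 11 higher transcripts, against 14.4%, and 14 lower ones, against 12.4%. Both directions together made 21.4% of the tested member transcripts and 26.8% of all transcripts. DESeq2 called 1 lower transcript, variant X1 of HSPA12A, against 1.85% of all transcripts, with 215 counts in Control-317 and 0 in every other library. Levels below are CPM of single transcripts, normalised over transcripts.

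Variant X2 of HSPH1 had 207 and 145 CPM in the deprived libraries, against 57.0, 109 and 42.7 CPM in the control libraries (log2 fold change 1.34, adjusted p = 0.703 in edgeR). It held 74.3% and 61.0% of the gene's counts in the deprived libraries, against 35.9%, 50.6% and 20.1% in the control libraries. This share contains the same counts, so it adds no separate result. The variant was picked for a small unadjusted p among those whose groups did not overlap. Variant X1 of the gene had 0 and 5.53 CPM against 40.2, 0 and 48.9 CPM, absent from the estimates of Control-317 as from Deprivated-316. The higher total of HSPH1 was thus assigned to 1 variant, and X3 had 71.5 and 87.4 CPM against 61.4, 106 and 121 CPM.

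Variants X1 and X3 of DNAJC6 separated the groups where the gene total did not. X1 had 118 and 91.5 CPM in the deprived libraries, against 55.3, 57.4 and 64.1 CPM in the control libraries (log2 fold change 0.83, adjusted p = 0.590 in edgeR), and X3 134 and 135 CPM against 73.3, 102 and 66.97 CPM (0.73, adjusted p = 0.712). In both, Control-317 lay with the control libraries or near them, whereas X4, the most abundant variant, had 217 and 344 CPM against 189.7, 358 and 177 CPM and carried the high gene total of Control-317. A minor variant of HSP90AB1, X3, had 80.8 and 65.3 CPM against 39.3, 25.7 and 19.0 CPM (1.38, adjusted p = 0.594), 4.89% and 4.29% of the gene's counts against 3.18%, 1.28% and 1.59%.

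**Figure D5:**
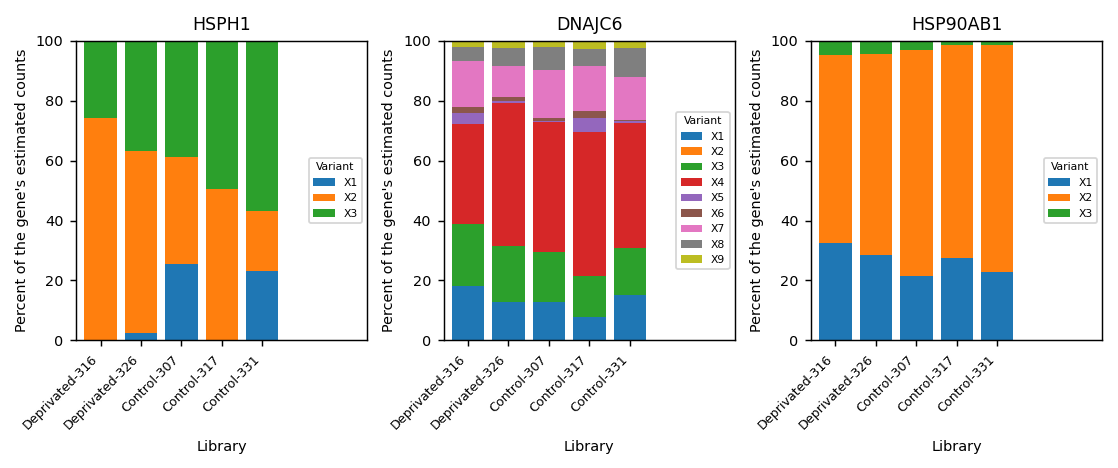
Percent of each gene's estimated counts assigned to each transcript variant of HSPH1, DNAJC6 and HSP90AB1, stacked by library. For HSPH1, variant X2 takes 74.3% and 61.0% in the deprived libraries, against 35.9%, 50.6% and 20.1% in the control libraries.

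On the lower side, variant X3 of DNAJB6, which held 81.8% to 91.7% of the gene's counts, had 18.01 and 20.6 CPM in the deprived libraries, against 37.2, 41.2 and 33.6 CPM in the control libraries (log2 fold change -0.95, adjusted p = 0.598 in edgeR). It followed the gene total. An unnumbered transcript of DNAJB9 had 30.7 and 25.1 CPM against 42.9, 40.1 and 42.2 CPM, with Control-317 level with the other control libraries although its gene total was not. An unnumbered transcript of DNAJB2 had 46.6 and 46.7 CPM against 55.7, 77.8 and 60.7 CPM. Variant X1 of DNAJC19, an import motor subunit, had 3.47 and 1.62 CPM against 9.94, 8.16 and 4.95 CPM.

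Some variants were assigned all or none of a gene's reads by library. Variant X2 of HSPA4L was at 0 in Control-317 and held 36.0% to 54.5% of the gene's counts elsewhere. Variant X4 of DNAJC14 had 72.5% in Deprivated-316 and 0 in Deprivated-326, against 37.8% in Control-307 and 0 in the other control libraries. Such values differ within a group as much as between groups, and transcript levels are accordingly less certain than gene totals.

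Partners of these proteins outside the rule were read from lists of related genes. Of 4 heat shock factors and regulators tested, 2 were above 0 and 2 below (median log2 fold change 0.08). HSF1, the factor that drives the heat shock response, had 35.9 and 36.0 CPM in the deprived libraries, against 29.2, 36.7 and 29.7 CPM in the control libraries. The 11 BAG and other nucleotide exchange genes had 8 above and 3 below (0.12). The 23 genes listed with the cochaperones of HSP90 and HSP70 had 7 above and 16 below (-0.10). The 15 genes listed for the chaperonin CCT and for prefoldin, which fold actin and tubulin, had 6 above and 9 below (-0.11). The 27 genes of the unfolded protein response had 8 above and 19 below (-0.11). All-gene values were 44.9% above 0 and a median of -0.06, and 0 genes of any list passed the test.

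Among them BAG3, the partner of HSPB8, had 10.9 and 11.2 CPM in the deprived libraries, against 15.6, 11.9 and 17.4 CPM in the control libraries. ST13, which binds HSP70, had 224 and 258 CPM against 336, 300.0 and 303 CPM. In both genes the deprived libraries were below all control libraries, at log2 fold changes of -0.44 and -0.38. Of the 11 nucleotide exchange genes, 1 was higher without overlap (GRPEL2) and 1 lower. Of the 23 genes listed with cochaperones, 2 were higher (CDC37 and, by a margin within rounding, STIP1) and 5 lower. The 15 genes listed for CCT and prefoldin had 0 higher and 4 lower, and the 27 of the unfolded protein response 1 higher and 8 lower. The 4 heat shock factors and regulators had 0 in either direction. The lists were not tested as sets. The shares over all genes were 15.2% higher and 15.5% lower. FKBP5, an HSP90 cochaperone induced by glucocorticoids, had 12.7 and 7.64 CPM against 47.8, 12.6 and 41.2 CPM, again with Control-317 beside the deprived libraries (log2 fold change -1.73, adjusted p = 0.497 in edgeR).

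Of 12 other heat-inducible genes tested, 4 were above 0 and 8 below (median -0.09). IER5, an immediate early gene that acts on HSF1, had 19.0 and 11.9 CPM in the deprived libraries, against 5.17, 3.92 and 5.26 CPM in the control libraries (log2 fold change 1.69, adjusted p = 0.303 in edgeR). CRYAB, a small heat shock protein outside the naming rule and abundant in oligodendrocytes, had 100.3 and 164 CPM against 252, 117 and 205 CPM, while oligodendrocyte markers summed to 6471 and 11086 CPM against 15840, 12041 and 15147 CPM. The relation of the 2 was not tested. Of 12 neuronal immediate early genes 11 were above 0, with a median log2 fold change of 1.41, and 10 of them had both deprived libraries above all control libraries, against 15.2% of all genes. Markers of cortical or hippocampal excitatory neurons, which lie outside the dLGN, were higher in the same libraries. All 9 tested were above 0 (median 5.11), 7 of them did not overlap, and their summed level was 807 and 485 CPM in the deprived libraries, against 142, 277 and 214 CPM in the control libraries. TBR1, a defining marker of these neurons, had 98.4 and 49.96 CPM against 2.48, 0.400 and 1.34 CPM, and BHLHE22 was at 0 in every control library. The part of such cells in the IER5 and immediate early values was not tested.

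At the threshold of 50 counts, the members just inside were HSPA6 with 75 counts over all libraries, HSPB11 with 166, DNAJC17 with 177 and DNAJC12 with 188. Just outside were HSPB3 with 24, HSPB7 with 22, HSPB2 with 9.8 and HSPB9 with 2, which are known mainly from muscle, heart or testis. DNAJB8, DNAJC5B and DNAJC5G were at 0 in every library, which covers counting error only and allows up to 3 counts in each.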

How the data were processed

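Reads from 5 dLGN libraries had been filtered by the authors with fastp 0.18.0 and quantified with StringTie 1.3.4 on Macaca_fascicularis_5.0. The methods name HISAT2 as the aligner, and the submitters' processing notes also list Bowtie2 2.2.8. The deposited estimated counts and FPKM of 62655 transcripts were summed per symbol. Counts were rounded, filtered on low values (14317 genes and 33469 transcripts kept), normalised by TMM and tested by quasi-likelihood in edgeR 4.0.16 under R 4.3.3 over the whole table, with Benjamini-Hochberg adjustment and a threshold of 0.05. P-values set the difference between the groups against the spread between animals within them, 2 deprived and 3 control. That spread includes the differences in tissue markers between the control libraries.

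Alternatives were DESeq2 1.42.0, edgeR's exact test, other size factors and filters, limma 3.58.1 on log2 FPKM with pseudocounts of 0.1 and 1, leaving out each library, and an exchange of Control-317 with Deprivated-316. With that exchange, group means in a supplementary table were matched for 310 of 310 transcripts, and by the labels for 20 of 310 (within 0.1% relative or 0.01 absolute). All results follow the labels.

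The members and gene lists were chosen with earlier results of these data known. Families and compartments of members were assigned after their values were seen. Named genes are the class-defining members, those with the smallest unadjusted p among non-overlapping groups, the 8 most abundant and those at the count threshold, and other members were named after their values were seen. Transcripts were picked in each direction by the smallest unadjusted p among non-overlapping groups, and other variants were named after their values were seen. The tests were run on simulated counts of 14317 genes, with 50 genes changed at each log2 size. Quasi-likelihood recovered 1 of 50 at a size of 1, 14 at 2, 37 at 3 and 42 at 4. It made 12 false calls among 14117 unchanged genes. At a size of 1, DESeq2 recovered 7 and the exact test 5, with 77 and 63 false calls. No sequence or coordinate is given, because the reference table used here is of another assembly.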

Additional observations from a re-analysis of the deposited data

How the results depend on the processing

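The number of members past the test was 0 under every alternative except without Control-317, where it was 5 (range over left-out libraries 0 to 5). For member transcripts it was 0 under every alternative except DESeq2, which called 1: variant X1 of HSPA12A, with 215 counts in Control-317 and 0 in every other library (adjusted p = 0.000190). For the lists of related genes it was 0, with 3 under DESeq2, 3 under the exact test and 0 to 9 with a library left out. The median log2 fold change of the members (-0.11) ran from -0.13 to -0.06 with a library left out and was -0.018 with Control-317 and Deprivated-316 exchanged. Members with non-overlapping groups numbered 14 (30.8% of all genes), 18 to 32 with a library left out (36.5% to 63.3% of all genes), and 13 after the exchange (24.0%). Leaving out a deprived library leaves a lone sample, which is assumed to vary like the others.

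The exchange turned the sign of 24 of 59 members, and of 45.2% of all genes. Among the 30 named genes it gave log2 fold changes of -0.052 for DNAJA1, 0.15 for DNAJB1, -0.15 for DNAJB12, 0.20 for DNAJB2, -0.11 for DNAJB5, 0.21 for DNAJB6, 0.089 for HSPA4, 0.57 for HSPA4L, 0.53 for HSPA8, 1.43 for HSPB1, -0.78 for HSPB6 and 0.97 for HSPB8. DNAJA1 was also at -0.019 with limma at either pseudocount. With a library left out, the sign turned for DNAJC5 (-0.073 to 0.71), HSP90AB1 (-0.0016 to 0.42), HSPA12A (-0.36 to 1.21), HSPA2 (-0.068 to 0.63), HSPA4L (-0.41 to 0.26), HSPA5 (-0.11 to 0.35), HSPA9 (-0.12 to 0.32) and HSPB1 (-1.04 to 0.37). Another 13 named genes kept their sign but moved by over 1.5 times: HSPA8 (-0.77 to -0.16), HSPB8 (-1.73 to -0.30), HSPB6 (0.32 to 1.52), HSP90B1 (-0.37 to -0.055), DNAJC6 (0.25 to 0.71), DNAJA3 (-0.56 to -0.24), DNAJB2 (-0.40 to -0.14), HSPD1 (-0.29 to -0.084), DNAJB1 (-0.26 to -0.081), DNAJC14 (-0.17 to -0.041), HSPA4 (-0.14 to -0.060), DNAJC11 (0.058 to 0.13) and DNAJA1 (0.0088 to 0.096). The causes were not tested. No paired analysis was possible because the animal numbers in the labels are not shared between the groups.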
